A study of Mus musculus with 6 samples.

Results

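The genes described here encode ATP-dependent chromatin remodellers: the SWI/SNF complexes (also called BAF), the CHD enzymes, the NuRD complex, and the ATPases of the ISWI and INO80 complexes. A list of 43 gene symbols defined them, and all 43 were found among the 24421 genes of the deposited count table and passed the filter on low counts, which left 14417 genes. The values come from RNA sequencing of primary neural stem cells from the subventricular zone of C57BL/6 mice, taken at postnatal day 60 and grown with EGF and FGF2 at 20 ng/ml. The subventricular zone lines the lateral ventricles and keeps producing neurons in adult mice. Cells received 20 µM PluriSIn#2, described in the labels as an inhibitor of topoisomerase IIA, or DMSO, its solvent, for 3 days, with 3 libraries in each group. Wild-type cells, medium and growth factors were shared by both groups. Whether the replicates are separate cultures is not stated in the labels, and the p-values therefore reflect only how far these libraries spread, which may be technical. The treatment field of PluriSIn#2 replicates 2 and 3 names PluriSIn with other numbers than their titles do, which can be read as other compounds. The titles were followed, and results with PluriSIn#2 replicate 1 alone are given further on.

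Remodellers use ATP to slide, eject or exchange nucleosomes and so open or close DNA to other factors. SWI/SNF complexes carry BRG1 (gene Smarca4) or BRM (Smarca2) as their motor. In the developing nervous system, dividing progenitors build a complex with BAF53A (Actl6a), BAF45A (Phf10) and SS18, whereas postmitotic neurons exchange these for BAF53B (Actl6b), BAF45B or BAF45C (Dpf1, Dpf3) and CREST (Ss18l1). NuRD joins a CHD3, CHD4 or CHD5 motor to the histone deacetylases HDAC1 and HDAC2 and to the MTA and GATAD2 proteins, and is known mainly for repression.

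Total counts were between 16670962 and 17827158 in PluriSIn#2 libraries and between 18186070 and 19241869 in DMSO libraries. Pairwise correlations of log2 CPM (CPM: reads of a gene relative to its library's scaled total) lay between 0.994 and 0.995 for libraries of 1 group and between 0.878 and 0.880 for libraries of different groups. Sums of marker genes differed between the groups. The 12 markers of proliferating cells were all lower, and summed to between 128 and 134 CPM in PluriSIn#2 libraries and between 3790 and 3807 CPM in DMSO libraries. The 10 markers of astrocytes and quiescent neural stem cells were all higher, at between 15948 and 16189 CPM in PluriSIn#2 and between 4083 and 4098 CPM in DMSO. Among 13 markers of microglia and macrophages 11 were tested and all 11 were higher, with sums between 181 and 187 CPM in PluriSIn#2 and between 7.76 and 8.79 CPM in DMSO, where Trem2 had no read. Sums of 8 fibroblast and mural markers (7 higher) lay between 220 and 225 CPM in PluriSIn#2 and between 23.7 and 24.6 CPM in DMSO. Sums of 8 endothelial markers (6 of 7 tested higher) lay between 30.7 and 33.6 CPM in PluriSIn#2 and between 6.5 and 7.73 CPM in DMSO. Those of 8 ependymal markers (6 of 7 tested higher) lay between 165 and 168 CPM in PluriSIn#2 and between 47.1 and 49.4 CPM in DMSO. Foxj1 carried most of the ependymal sum (144 ± 1.26 CPM in PluriSIn#2 and 34.1 ± 0.43 CPM in DMSO), and Ccdc39 was not called. Cdh5 was the largest endothelial marker in PluriSIn#2, at 16.5 ± 1.85 CPM, against 0.128 ± 0.0275 CPM in DMSO. In bulk RNA, fewer cells of a type and less RNA per cell cannot be told apart, and the part of these cell types in the results that follow was not tested.

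Most remodeller genes were lower after PluriSIn#2. At an adjusted p under 0.05 in edgeR's quasi-likelihood test, 31 of the 43 (72.1%) fell, where 40.9% of all genes tested fell. Another 7 (16.3%) rose, where 41.7% of all genes rose. The other 5, Smarcd2, Dpf2, Smarca1, Smarcal1 and Mta1, were not called, so that 38 of 43 changed in either direction, where 82.6% of all genes did. Changes were moderate in size. A fall of at least 2-fold was found for 8 genes (18.6%), against 11.7% of all genes, and a rise of at least 2-fold for 2 genes (4.65%), against 16.3% of all genes. The counts at 2-fold depend on the fit. With library totals alone 5 of the 43 (11.6%) fell by that much, against 10.6% of all genes, and with limma on log2(FPKM + 1) 4 (9.3%) fell and 0 rose by that much, against 8.1% and 9.29% of all genes. The median log2 fold change (PluriSIn#2 over DMSO) was -0.42 for the 43 genes, with a range of -1.35 to 1.37, and 0.01 for all genes. PluriSIn#2 and DMSO libraries did not overlap for 39 of the 43, and for 82.7% of all genes tested. The 4 that overlapped were Smarcd2, Dpf2, Smarca1 and Mta1. The 43 genes had a median level of 113 CPM, against 30.3 CPM for all genes tested. The shares given here were not compared at matched abundance. The 7 that rose were Actl6b, Chd5, Smarca2, Chd9, Mta3, Smarcd3 and Chd3, each of which has a paralogue among the genes that fell.

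**Figure D1:**
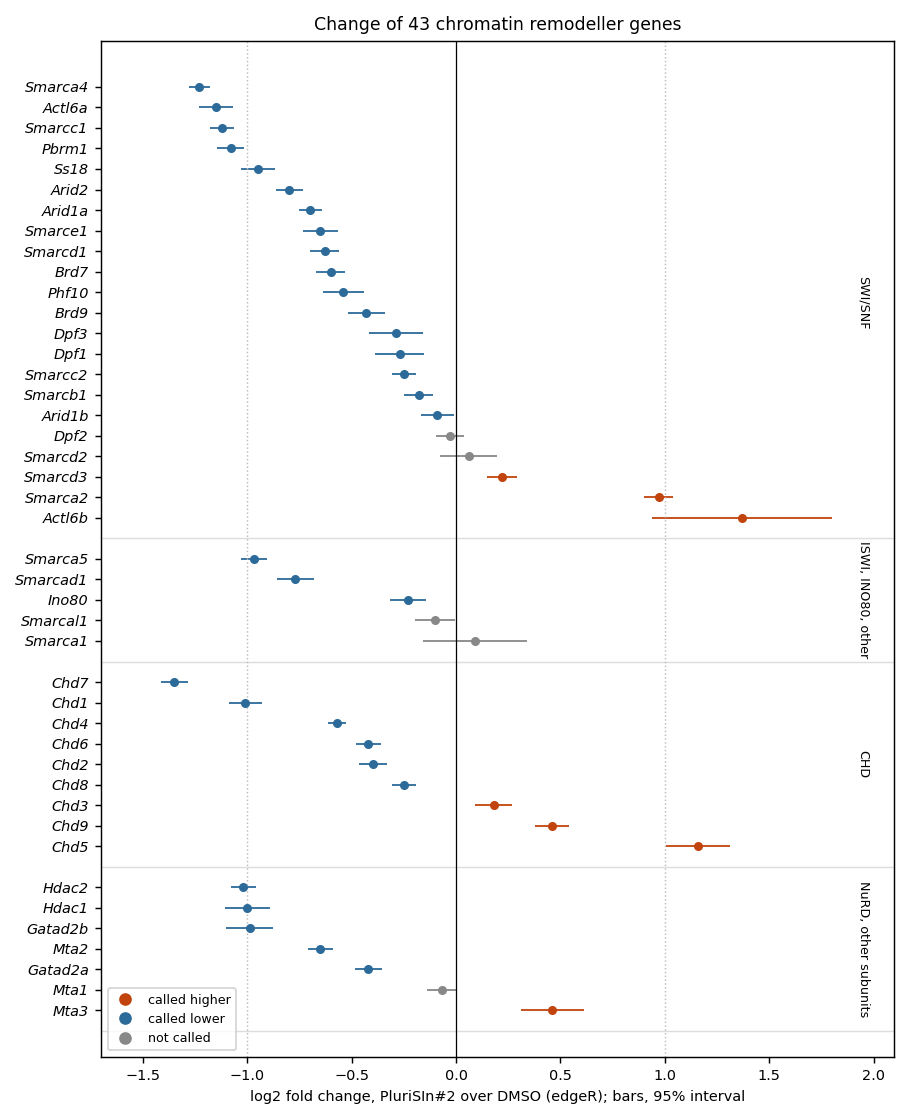
Log2 fold change of each of the 43 genes, PluriSIn#2 over DMSO, by complex; points are edgeR estimates, bars 95% intervals, and dotted lines mark a 2-fold change. Chd7 lies lowest at -1.35 and Actl6b highest at 1.37, and only Actl6b and Chd5 pass a 2-fold rise.

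The motor genes of SWI/SNF moved in opposite directions. Smarca4, which encodes BRG1, stood at 212, 213 and 212 CPM in PluriSIn#2 libraries, against 504, 498 and 486 CPM in DMSO libraries. Every treated library was below every DMSO library, and the log2 fold change was -1.23 (SE 0.0253, adjusted p = 1.43e-61). Smarca2, which encodes BRM, the motor found mostly in slowly dividing and differentiated cells, had 154, 154 and 159 CPM in PluriSIn#2 and 82.0, 74.9 and 80.6 CPM in DMSO. Here the treated libraries were the higher ones, without overlap (log2 fold change 0.97, SE 0.0364, adjusted p = 7.63e-42). In FPKM, the authors' length-normalized unit, which allows genes to be compared with each other, Smarca2 made up 46.6% ± 0.495 of the summed level of both motors in PluriSIn#2 and 16.2% ± 0.636 in DMSO (SD, n = 3). The summed level of both fell to 62.6 ± 0.429 FPKM in PluriSIn#2, against 88.9 ± 1.73 FPKM in DMSO. Smarca4 thus remained the more abundant transcript in both groups, at 33.4 and 29.2 FPKM for Smarca4 and Smarca2 in PluriSIn#2 and 74.5 and 14.4 FPKM in DMSO. Smarca4 lies at chr9:21616169-21704230 and Smarca2 at chr19:26605050-26778322 (GENCODE M21 on GRCm38, the build also called mm10). The gene length implied by FPKM and counts differed by 2.08% between groups for Smarca2 and was equal within 1% for the other 42 genes.

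Of the subunits that differ between progenitors and neurons, the BAF53 and SS18 genes shifted towards the neuronal form. The neuronal BAF45 genes Dpf1 and Dpf3 fell, though by less than Phf10. Their log2 ratios to Phf10 thus rose slightly, by 0.27 and 0.24. Actl6a, the BAF53A gene of progenitors, had 54.6, 50.2 and 54.6 CPM in PluriSIn#2 and 119, 118 and 118 CPM in DMSO. It was lower in each treated library, with a log2 fold change of -1.15 (SE 0.0413, adjusted p = 3.03e-43). Actl6b, its neuronal counterpart, had 3.89, 3.07 and 4.51 CPM in PluriSIn#2 and 1.74, 1.57 and 1.12 CPM in DMSO. All treated libraries were above all DMSO libraries (log2 fold change 1.37, SE 0.221, adjusted p = 3.78e-08). These values rest on few reads, namely 69, 56 and 77 in PluriSIn#2 and 31, 28 and 21 in DMSO. Actl6b was the least abundant of the 43 genes, with a mean of 2.65 CPM over the 6 libraries. It held 8.35% ± 1.15 of the BAF53 FPKM in PluriSIn#2 and 1.56% ± 0.33 in DMSO, so that Actl6a supplied 91.7% ± 1.15 in PluriSIn#2 and 98.4% ± 0.33 in DMSO. The BAF53 total fell to 29.6 ± 1.74 FPKM in PluriSIn#2, against 58.4 ± 0.457 FPKM in DMSO. Of the exonic bases of Actl6a 11.6% are shared with exons of Mrpl47 on the other strand, and no source used here says whether the counting was strand-specific. Other genes also share exonic bases, among them Smarcd3 (48.2%), Chd2 (19.3%, in part with a gene on its own strand), Smarcd1 (12.7%) and Phf10 (9.56%).

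The windows around the start sites of these 4 genes are given to show the DNA behind the opposed pairs, from 250 bases before to 50 after each start, from RefSeq on GRCm38.p6. They cover chr5:137553296-137553595 for Actl6b, chr3:32708296-32708595 for Actl6a, chr19:26604910-26605209 for Smarca2 and chr9:21615919-21616218 for Smarca4, all on the plus strand. Capitals mark matches to 3 motifs on either strand. The GC box is GGGCGG, which reads CCGCCC on the minus strand. The box named after its letters is CCAAT, which reads ATTGG on the minus strand. For the neuronal repressor REST the letters GGACAGC were searched, which are part of its site and read GCTGTCC on the minus strand.
Actl6b: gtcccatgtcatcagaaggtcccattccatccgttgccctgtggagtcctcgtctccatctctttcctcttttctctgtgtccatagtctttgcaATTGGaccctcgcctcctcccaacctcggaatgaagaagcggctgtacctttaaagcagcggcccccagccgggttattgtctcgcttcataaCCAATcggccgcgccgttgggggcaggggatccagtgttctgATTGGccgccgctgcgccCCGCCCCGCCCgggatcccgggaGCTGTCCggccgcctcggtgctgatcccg
Actl6a: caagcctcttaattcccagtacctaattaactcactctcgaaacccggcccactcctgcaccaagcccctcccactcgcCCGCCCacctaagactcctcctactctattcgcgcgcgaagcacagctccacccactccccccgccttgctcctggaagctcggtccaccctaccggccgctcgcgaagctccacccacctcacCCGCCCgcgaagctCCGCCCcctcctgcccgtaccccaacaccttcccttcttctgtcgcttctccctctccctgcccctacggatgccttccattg
Smarca2: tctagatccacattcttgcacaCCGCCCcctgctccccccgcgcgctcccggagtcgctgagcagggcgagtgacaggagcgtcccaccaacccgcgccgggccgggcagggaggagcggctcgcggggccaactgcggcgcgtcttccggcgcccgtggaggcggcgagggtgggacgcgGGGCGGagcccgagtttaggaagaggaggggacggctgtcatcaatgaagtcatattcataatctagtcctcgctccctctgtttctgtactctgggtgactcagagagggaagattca
Smarca4: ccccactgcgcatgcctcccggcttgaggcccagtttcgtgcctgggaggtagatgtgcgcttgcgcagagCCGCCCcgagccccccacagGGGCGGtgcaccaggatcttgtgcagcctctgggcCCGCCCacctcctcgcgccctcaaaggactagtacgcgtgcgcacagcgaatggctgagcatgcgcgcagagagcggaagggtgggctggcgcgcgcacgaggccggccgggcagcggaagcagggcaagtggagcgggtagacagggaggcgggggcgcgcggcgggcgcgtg
The Actl6b window held 2 GC boxes, which share 1 base, 3 CCAAT boxes and 1 match to the REST letters. Those of Actl6a and Smarca4 held 3 GC boxes each and that of Smarca2 held 2, with neither of the other motifs. Over all 32851 RefSeq windows of this length, 35.7% held a GC box, 37.4% a CCAAT box and 6.56% the REST letters. These matches are letters in a window and say nothing of binding in these cells.

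In the BAF45 family, the progenitor gene and both neuronal genes were lower in treated cells. Phf10, the BAF45A gene, had 44.2, 41.2 and 41.0 CPM in PluriSIn#2 and 59.0, 62.2 and 62.4 CPM in DMSO (log2 fold change -0.54, SE 0.0502, adjusted p = 5.56e-17). Dpf1, the BAF45B gene, had 33.3, 35.5 and 32.6 CPM in PluriSIn#2 and 41.2, 37.0 and 44.4 CPM in DMSO (-0.27, SE 0.0599, adjusted p = 2.81e-05). In both genes every treated library was below every DMSO library, though for Dpf1 by a narrow margin. Dpf3, the BAF45C gene, had 30.2, 28.1 and 23.9 CPM in PluriSIn#2 and 33.7, 33.5 and 33.4 CPM in DMSO (-0.29, SE 0.0658, adjusted p = 4.79e-05). The treated libraries of Dpf3 spread more than the DMSO ones, and with PluriSIn#2 replicate 1 alone its fall was no longer called (-0.15, adjusted p = 0.127, with edgeR's adjusted p or that of the other tools from 9.76e-06 to 0.127 over 15 alternatives). Dpf2, the member made in most cell types, was not called, at 122 ± 3.73 CPM in PluriSIn#2 and 125 ± 1.11 CPM in DMSO (95% interval of the log2 fold change -0.10 to 0.04). By FPKM share, Dpf1 held 16.7% ± 0.605 of the family in PluriSIn#2 and 16.6% ± 1.24 in DMSO, and Dpf3 held 9.75% ± 1.04 in PluriSIn#2 and 9.88% ± 0.193 in DMSO. Phf10 gave up share, at 32.5% ± 0.907 in PluriSIn#2 and 38.9% ± 0.684 in DMSO, and Dpf2 held more, at 41.0% ± 1.70 in PluriSIn#2 and 34.6% ± 0.411 in DMSO.

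Ss18, the progenitor gene of its pair, was at 65, 57.6 and 59.6 CPM in PluriSIn#2 and at 114, 119 and 118 CPM in DMSO. It fell in each treated library (log2 fold change -0.95, SE 0.0411, adjusted p = 4.19e-37). Ss18l1, its neuronal paralogue CREST, is not among the 43 genes and was at 30.5, 32.6 and 33.3 CPM in PluriSIn#2 and 26.3, 25.6 and 25.8 CPM in DMSO. It rose without overlap (0.31, SE 0.0647, adjusted p = 1.15e-05), to 27.3% ± 2.07 of the FPKM of the pair in PluriSIn#2, against 13.6% ± 0.428 in DMSO. Among 12 neuronal marker genes 9 rose (75.0%, against 41.7% of all genes tested), 1 fell and 2 were not called. A rise of at least 2-fold was found for 6 of them, against 16.3% of all genes. The 2 without a call were Dcx and Tubb3. Dcx had a log2 fold change of -0.15, with every treated library below every DMSO library. Tubb3 had a log2 fold change of 0.12, with overlap between groups. The median log2 fold change of the 12 was 0.99, and each marker had reads in both groups. The one that fell, Map2, was the most abundant, at 383 ± 1.59 CPM in PluriSIn#2 and 892 ± 24.7 CPM in DMSO, and set the direction of the sum, which was between 596 and 603 CPM in PluriSIn#2 and between 989 and 1041 CPM in DMSO. The other 11 markers summed to between 214 and 220 CPM in PluriSIn#2 and between 118 and 128 CPM in DMSO. Map2 was left out of this sum after its values were seen. Actl6b and Ss18l1 rose, unlike the sum of all 12 and like that of the 11. The part of neuronal cells in the levels of Actl6b and Ss18l1 was not tested.

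**Figure D2:**
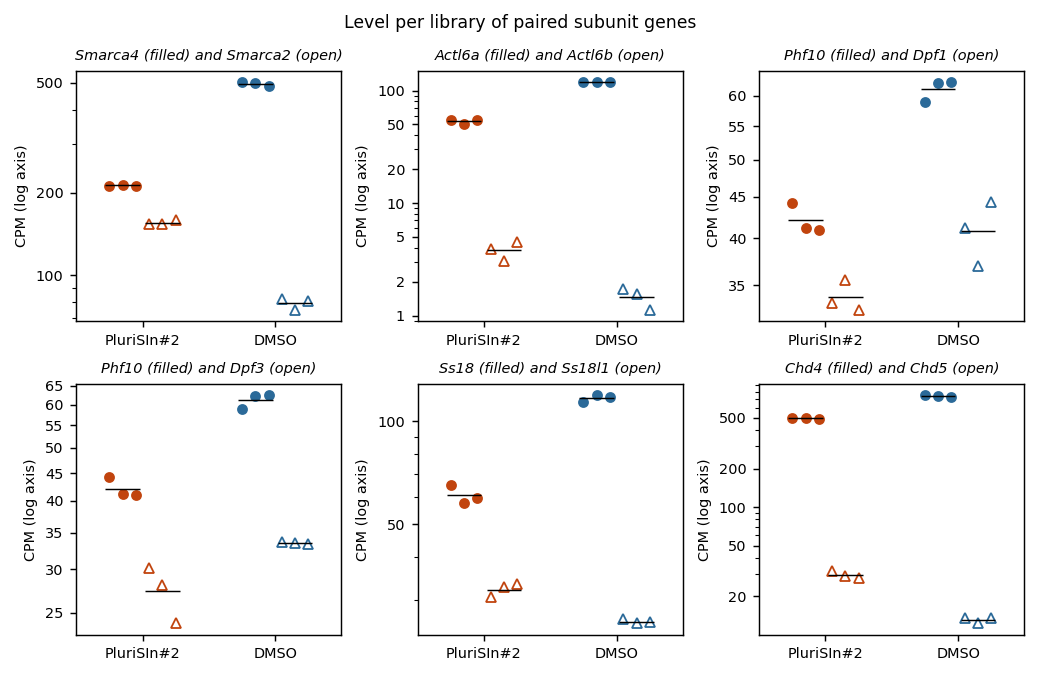
CPM of paired subunit genes in each library on a log axis, with PluriSIn#2 left and DMSO right; filled circles are the first gene, open triangles the second, and black lines the group means. Smarca2, Actl6b, Ss18l1 and Chd5 lie higher in PluriSIn#2, whereas Dpf1 and Dpf3 lie lower together with Phf10.

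Paralogues among the core subunits changed by different amounts, and most of these genes fell. Smarcc1, which encodes the scaffold BAF155, had 130, 129 and 130 CPM in PluriSIn#2 and 281, 286 and 278 CPM in DMSO. It was lower in all treated libraries (log2 fold change -1.12, SE 0.0293, adjusted p = 2.25e-53). Its paralogue Smarcc2, the BAF170 gene, fell by less, with 228, 243 and 222 CPM in PluriSIn#2 and 281, 264 and 279 CPM in DMSO (-0.25, SE 0.0286, adjusted p = 5.65e-13). Smarcc2 thus held 67.1% ± 1.09 of their FPKM in PluriSIn#2 and 52.9% ± 1.13 in DMSO. In the BAF60 family, which links the complex to transcription factors, Smarcd1 fell (-0.63), Smarcd2 was not called (0.06, 95% interval -0.08 to 0.19) and Smarcd3 rose. Smarcd3, the BAF60C gene, had 122, 120 and 124 CPM in PluriSIn#2 and 106, 108 and 101 CPM in DMSO. The treated libraries were higher without overlap, by a small margin (0.22, SE 0.0358, adjusted p = 6.2e-08). Exons of Chpf2 on the other strand share 48.2% of the exonic bases of Smarcd3, and Chpf2 itself had 63.6 ± 0.665 CPM in PluriSIn#2 and 58.3 ± 0.403 CPM in DMSO, so reads of the pair may be mixed. The BAF60 total was 110 ± 1.52 FPKM in PluriSIn#2 and 111 ± 2.83 FPKM in DMSO, with Smarcd3 the most abundant of the family in both. Smarce1 (-0.65) and Smarcb1 (-0.18), which encode the subunits BAF57 and BAF47, fell as well. Smarce1 has a pseudogene, Smarce1-ps1, and their reads cannot be told apart with certainty.

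Among the subunits that set the type of SWI/SNF complex, those of PBAF fell. Pbrm1, the polybromo subunit of PBAF, had 101, 96.9 and 98.4 CPM in PluriSIn#2 and 201, 212 and 214 CPM in DMSO. No treated library reached the DMSO range (log2 fold change -1.08, SE 0.033, adjusted p = 1.92e-48). Arid2 (-0.80) and Brd7 (-0.60), further PBAF genes, fell as well. Brd9, which marks the non-canonical complex, fell by 0.43 on the log2 scale. Of the ARID1 genes of canonical BAF, Arid1a had 214 ± 7.66 CPM in PluriSIn#2 and 349 ± 15.3 CPM in DMSO (-0.70, SE 0.0281). Arid1b differed little, at 81.2 ± 1.39 CPM in PluriSIn#2 and 86.7 ± 5.18 CPM in DMSO (-0.09, adjusted p = 0.0313), and was not called in the authors' deposited table (adjusted p = 0.0888) or by DESeq2 (adjusted p = 0.0755). Over 15 alternative fits its adjusted p ranged from 0.00735 to 0.72, and the call was lost without DMSO replicate 1 (0.276), without PluriSIn#2 replicate 2 (0.086) and without PluriSIn#2 replicate 3 (0.0661). Altogether 17 of the 22 SWI/SNF genes fell (77.3%, against 40.9% of all genes tested), 3 rose (13.6%, against 41.7%) and 2 were not called, with a median of -0.49, against 0.01 for all genes.

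Ratios of paralogues within a library do not depend on how libraries are scaled. Over 14 such ratios, 13 separated the groups without overlap, where 82.7% of single genes tested did so. No share was computed for other gene pairs. Each of the 13 had a two-sided exact permutation p = 0.1, the smallest that 3 libraries against 3 allow (0.108 after adjustment over the 14). None can therefore pass 0.05. The ratios restate the changes of single genes given here and are not separate evidence. The log2 ratio of Actl6b over Actl6a was -3.80 ± 0.215 in PluriSIn#2 and -6.32 ± 0.323 in DMSO, a difference of 2.52. That of Smarca2 over Smarca4 was -0.45 ± 0.0311 in PluriSIn#2 and -2.65 ± 0.0758 in DMSO, a difference of 2.20. For Ss18l1 over Ss18 the difference was 1.26, for Smarcc2 over Smarcc1 0.87, for Smarcd3 over Smarcd1 0.85 and for Arid1b over Arid1a 0.61. The ratios of Dpf1 and Dpf3 over Phf10 moved least among those that separated the groups, by 0.27 and 0.24. Gatad2b over Gatad2a was the ratio that was lower in treated cells without overlap (-0.57).

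**Figure D3:**
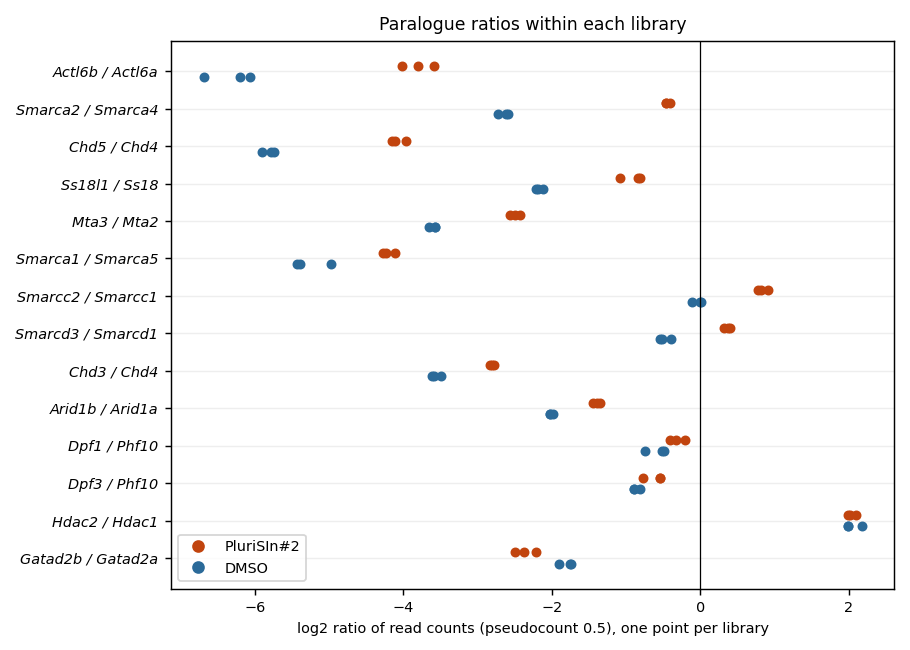
Log2 ratio of read counts of 14 paralogue pairs, with 1 point per library and PluriSIn#2 above DMSO within each pair. The groups are separate for 13 pairs and overlap for Hdac2 over Hdac1, and Actl6b over Actl6a shows the widest gap, 2.52.

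CHD enzymes are single-chain motors with paired chromodomains that bind histone tails, and 6 of the 9 genes fell (66.7%, against 40.9% of all genes tested) while 3 rose (33.3%, against 41.7% of all genes). Chd7, a member of the third subfamily required in neural crest and neural stem cells, showed the largest fall of the 43 genes, with 96.9, 91.9 and 100 CPM in PluriSIn#2 and 252, 249 and 236 CPM in DMSO. The groups lay far apart (log2 fold change -1.35, SE 0.033, adjusted p = 7.6e-56). Chd7 also acts in oligodendrocyte precursors, whose 8 marker genes all fell, where 40.9% of all genes tested fell. Of these markers 5 (62.5%) fell by at least 2-fold, against 11.7% of all genes. The median log2 fold change of the 8 was -3.23. Pdgfra, the receptor that defines these precursors, was at 4.91 ± 0.414 CPM in PluriSIn#2 and 56.9 ± 3.0 CPM in DMSO, and Sox10 was at 0.883 ± 0.114 CPM in PluriSIn#2 and 24.3 ± 1.29 CPM in DMSO. Gpr17 was near 0 after treatment, at 0.13 ± 0.0818 CPM in PluriSIn#2 and 33.2 ± 0.648 CPM in DMSO. Sums of all 8 lay between 2354 and 2423 CPM in PluriSIn#2 and between 2947 and 3075 CPM in DMSO, and were carried by Olig1, which differed little and overlapped between groups (1655 ± 35.4 CPM in PluriSIn#2 and 1737 ± 41.2 CPM in DMSO), and by Olig2. The part of these cells in the fall of Chd7 was not tested. In the same subfamily Chd6 (-0.42) and Chd8 (-0.25) fell and Chd9 rose (0.46), with 95.5, 98.4 and 102 CPM in PluriSIn#2 and 67.3, 74.8 and 72.8 CPM in DMSO. By FPKM, Chd7 held 16.4% ± 0.357 of the subfamily in PluriSIn#2 and 30.4% ± 0.601 in DMSO, and Chd9 held 16.5% ± 0.481 in PluriSIn#2 and 8.70% ± 0.517 in DMSO. Chd1, which works on transcribed genes and binds H3K4 methylation, had 62.9, 67.8 and 60.8 CPM in PluriSIn#2 and 124, 132 and 130 CPM in DMSO. It fell without overlap (-1.01, SE 0.0399, adjusted p = 4.6e-40), and Chd2 fell by less (-0.40).

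The NuRD motors again moved apart. Chd4, the main motor of NuRD and by CPM the most abundant of the 43 genes, had 495, 502 and 493 CPM in PluriSIn#2 and 749, 739 and 731 CPM in DMSO. All treated libraries were lower (log2 fold change -0.57, SE 0.0217, adjusted p = 1.59e-41). Chd5, a paralogue found mainly in neurons, had 31.5, 29.1 and 27.7 CPM in PluriSIn#2 and 13.5, 12.3 and 13.6 CPM in DMSO. It was higher in all treated libraries (1.16, SE 0.078, adjusted p = 1.21e-24). The rise of Chd3 was small, at 70.7 ± 2.25 CPM in PluriSIn#2 and 62.6 ± 3.57 CPM in DMSO (0.18, adjusted p = 0.000299). Chd4 still supplied 85.9% ± 0.311 of the FPKM of the 3 motors in PluriSIn#2 and 92.0% ± 0.297 in DMSO, whereas Chd5 supplied 3.42% ± 0.221 in PluriSIn#2 and 1.11% ± 0.0624 in DMSO. The log2 ratio of Chd5 over Chd4 differed by 1.73 and that of Chd3 over Chd4 by 0.75, both without overlap. Of the 12 neuronal markers 9 rose like Chd5 (75.0%, against 41.7% of all genes tested). The sum of all 12 was lower in treated cells, at 600 ± 4.07 CPM in PluriSIn#2 and 1014 ± 25.9 CPM in DMSO. Without Map2, left out after its values were seen, the other 11 summed to 217 ± 3.12 CPM in PluriSIn#2 and 123 ± 5.0 CPM in DMSO. The part of neuronal cells in the level of Chd5 was not tested.

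The deacetylase genes of NuRD fell together. Hdac2 had 118, 123 and 120 CPM in PluriSIn#2 and 238, 242 and 254 CPM in DMSO (log2 fold change -1.02, SE 0.0312, adjusted p = 2.06e-48). Hdac1 had 29.3, 30.9 and 28.2 CPM in PluriSIn#2 and 60.0, 61.0 and 56.4 CPM in DMSO (-1.0, SE 0.0549, adjusted p = 2.9e-30). Neither gene showed overlap between groups, and both products also serve other corepressor complexes. Their log2 ratio was 2.03 ± 0.0518 in PluriSIn#2 and 2.05 ± 0.107 in DMSO, with overlap (exact permutation p = 1, two-sided). Their FPKM total was 75.4 ± 1.58 in PluriSIn#2 and 146 ± 2.95 in DMSO, of which Hdac2 made up 80.1% ± 0.57 in PluriSIn#2 and 80.3% ± 1.15 in DMSO. By FPKM, Hdac2 was the most abundant of the 43 genes in DMSO (117 ± 3.96) and Chd4 in PluriSIn#2 (78.1 ± 0.716).

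Of the MTA genes, whose products tether the deacetylases, Mta2 fell and Mta3 rose. Mta2 had 131, 127 and 134 CPM in PluriSIn#2 and 212, 200 and 201 CPM in DMSO, without overlap (log2 fold change -0.65, SE 0.0317, adjusted p = 1.41e-33). Mta3 had 24.2, 22.3 and 22.6 CPM in PluriSIn#2 and 16.8, 16.8 and 16.8 CPM in DMSO, where the treated libraries were the higher ones (0.46, SE 0.077, adjusted p = 1.12e-07). Mta1 was not called, at 139 ± 8.71 CPM in PluriSIn#2 and 146 ± 5.18 CPM in DMSO, with a log2 fold change of -0.07 (adjusted p = 0.0645). A fall of it was called without PluriSIn#2 replicate 3 (-0.12, adjusted p = 0.00308), without DMSO replicate 2 (0.0256) and without DMSO replicate 3 (0.0418), within a range of 0.00308 to 0.999 over 15 alternatives. The GATAD2 genes, which bridge the deacetylase and the motor modules, both fell, Gatad2b by more than Gatad2a. Gatad2b had 27.8, 26.9 and 25.5 CPM in PluriSIn#2 and 55, 54.8 and 49.6 CPM in DMSO (-0.99, SE 0.058, adjusted p = 2.6e-28). Gatad2a had 138 ± 8.0 CPM in PluriSIn#2 and 185 ± 1.24 CPM in DMSO (-0.42, SE 0.0326).

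**Figure D4:**
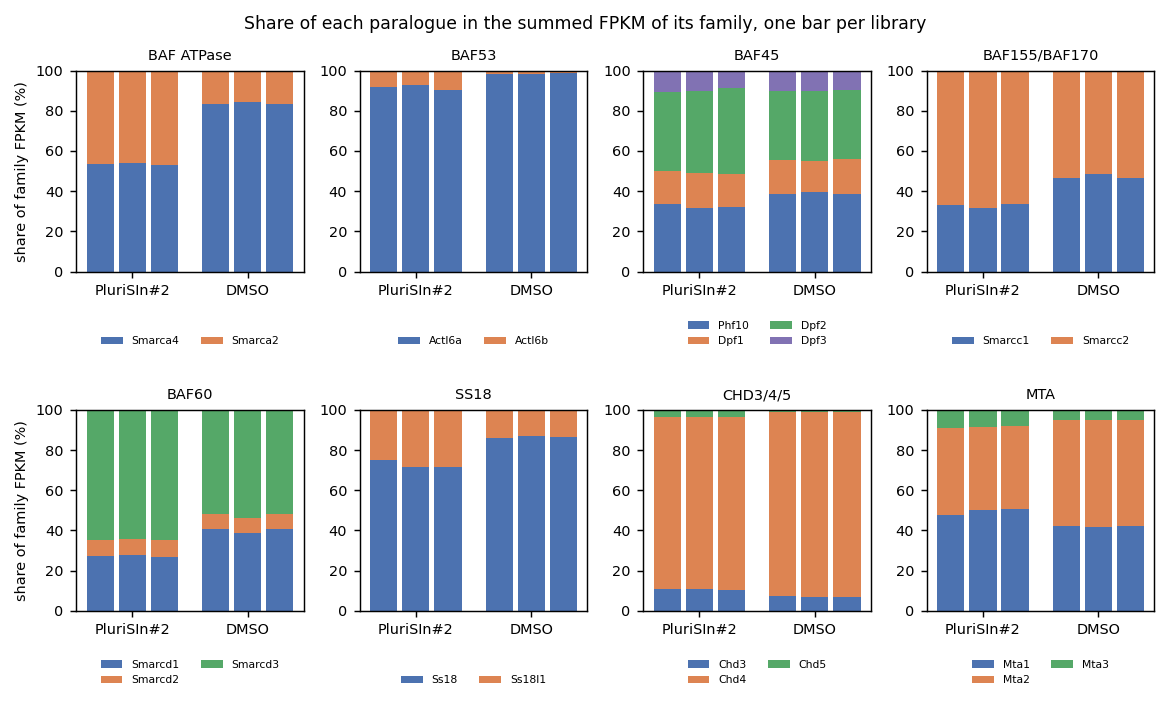
Share of each paralogue in the summed FPKM of its family, in percent, with 1 stacked bar per library and PluriSIn#2 left of DMSO. The Smarca2 part averages 46.6% in PluriSIn#2 and 16.2% in DMSO, and the Dpf1 part of BAF45 averages 16.7% in PluriSIn#2 and 16.6% in DMSO.

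The remaining ATPases fell or were not called. Smarca5, which encodes SNF2H, the ISWI motor that spaces nucleosomes, had 136, 127 and 133 CPM in PluriSIn#2 and 248, 270 and 258 CPM in DMSO. Treated libraries were all lower (log2 fold change -0.97, SE 0.0313, adjusted p = 1.26e-46), though reads of Smarca5 and its pseudogene Smarca5-ps cannot be told apart with certainty. Smarca1, which encodes the related SNF2L, had 7.12 ± 0.184 CPM in PluriSIn#2 and 6.72 ± 0.997 CPM in DMSO and was not called (0.09, 95% interval -0.17 to 0.34, and -0.01 without DMSO replicate 3). Smarcad1, linked to the copying of chromatin behind replication forks, fell by 0.77 on the log2 scale, and Ino80, the motor of the INO80 complex, fell by 0.23. Smarcal1, which anneals DNA at stalled forks, was not called (-0.10, adjusted p = 0.0568), except without DMSO replicate 1 (0.035, the lowest of 15 alternatives, whose highest was 0.576). The 12 markers of proliferating cells fell as Smarca5, Smarcad1 and Ino80 did, and their part in these 3 falls was not tested.

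Most genes of the further lists fell as well, apart from those of the SWI/SNF list. Among all genes tested, 40.9% fell and 41.7% rose. All 9 ISWI partner genes fell (median -0.81), and the largest fall was that of Baz1a, which encodes the ACF1 subunit, at 16.3 ± 0.828 CPM in PluriSIn#2 and 62.6 ± 3.73 CPM in DMSO (log2 fold change -1.94). Of 28 subunits of INO80, SRCAP and TIP60, 22 fell, 1 rose and 5 were not called (median -0.52). Brd8 of TIP60 fell most (-1.26), and Ino80c was the riser (0.40). Of 6 further NuRD genes 5 fell and 1 rose, with Cdk2ap1 at -1.01 and Mbd2, a reader of methylated DNA, at 0.27. All 13 other SNF2-family ATPases fell (median -1.15), led by the recombination motor Rad54l, which had 1.17 ± 0.252 CPM in PluriSIn#2 and 46.7 ± 1.66 CPM in DMSO (-5.31). Ercc6l (-5.06), Hells (-4.60) and Rad54b (-4.00) came next, and the rest of this list lay between -1.80 and -0.16. In the list of 9 further SWI/SNF genes, 4 were higher (44.4%), 3 were lower (33.3%) and 2 had no call, with a median of 0.07, and these shares lie near the 41.7% that rose and the 40.9% that fell among all genes. Among them Bcl11b rose (0.66) and Bcl7a fell (-1.01). Differences between these lists were not tested.

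**Figure D5:**
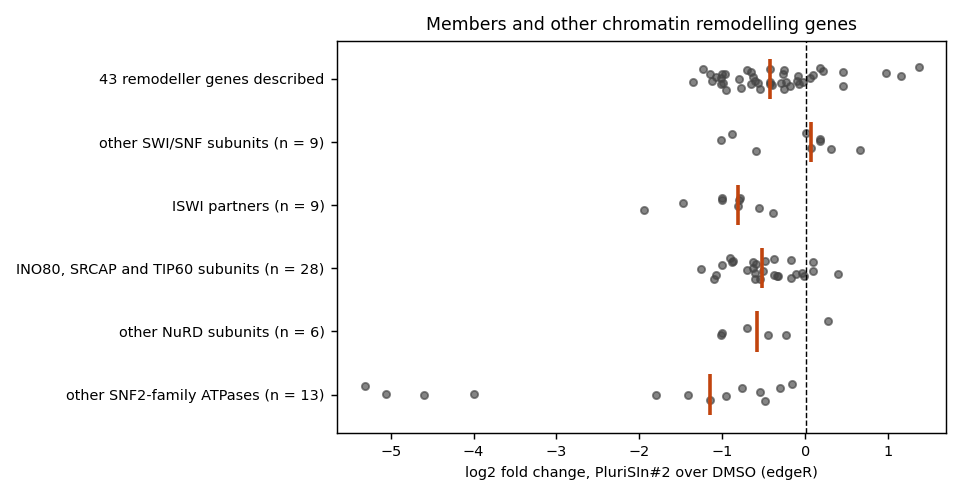
Log2 fold change, PluriSIn#2 over DMSO, of each of the 43 genes and of 5 lists of other remodelling genes; red bars are list medians and the dashed line is the median of all genes tested, 0.01. The SNF2-family list reaches -5.31, whereas the 43 genes stay between -1.35 and 1.37.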

How the data were processed

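RNA of 6 libraries, 3 of PluriSIn#2 and 3 of DMSO cells, was grouped by sample title. The submitters' processing notes name the build mm10 and the tools DESeq, HTSeq and STAR, without versions, and the annotation and strand setting are not given in the labels. The deposited table holds raw read counts per gene and library. FPKM were computed by the authors for each library, and the same table carries the authors' log2 fold changes and the authors' p-values.

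Counts were fitted in R 4.3.3 with edgeR 4.0.16 (filterByExpr, TMM factors, glmQLFit and glmQLFTest with the group as the only term), with Benjamini-Hochberg adjustment over all 14417 genes. SE is the absolute log2 fold change over the square root of F. CPM are counts over the library total multiplied by its TMM factor, and errors are SDs over 3 libraries. Paralogue ratios used counts plus 0.5 and exact permutation tests in SciPy 1.17.1. Alternatives were DESeq2 1.42.0, limma 3.58.1 on log2(FPKM + 1) or log2(FPKM + 0.1), other scalings and filters, left-out libraries and a replicate term. The scripts were tested on simulated data. Genes with a change of at least 2-fold, subunits that differ between progenitors and neurons, and the most abundant genes were given per library. Of each further list the largest rise and fall among called genes averaging at least 5 CPM were named, and others were chosen after their values were seen. The 43 genes and all lists were chosen with earlier results of these data known. No label mentions molecular identifiers, and genes with few reads, such as Actl6b, are measured in coarse steps. Replicate libraries differed by more than sampling noise (chi-square per degree of freedom from 1.57 to 2.27).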

Additional observations from a re-analysis of the deposited data

How the results depend on the processing

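Of the 38 called genes 36 kept direction and call under all 15 alternative fits, and the exceptions, Arid1b and Dpf3, kept their direction. The 31 falls stayed between 30 and 32, and the 7 rises between 7 and 8. The authors' deposited table calls 7 higher and 30 lower, and its log2 fold changes differ from those here by at most 0.00713. Counts at the 2-fold limit moved more, because several genes lie next to it. The 8 falls of at least 2-fold became 5 with library totals alone and 5 and 4 with limma on log2(FPKM + 0.1) and log2(FPKM + 1), and ranged from 6 to 10 with 1 library left out. The 2 rises of at least 2-fold became 0 with log2(FPKM + 1), a scale that understates changes of low genes. Library totals alone moved the median of all genes to 0.084. Smarcd2 was called higher in both limma fits (adjusted p 0.0474 and 0.047) within a range of 0.047 to 0.845 over 15 alternatives. Values near 0 changed sign. Dpf2 was 0.04 with library totals and 0.04 in both limma fits, Mta1 was 0.00 with library totals, Smarca1 ranged from -0.01 to 0.20 with 1 library left out, and the Hdac2 over Hdac1 difference from -0.05 to 0.05. The log2 ratio of the summed neuronal markers was -0.76 with Map2 and 0.82 without it, a choice made after seeing the data. Without length normalization the shares in PluriSIn#2 were 42.3% for Smarca2, 64.0% for Smarcc2, 6.68% for Actl6b and 4.93% for Chd5. Replicate numbers did not pair the libraries: deviations of same-numbered libraries correlated at 0.0134, 0.0293 and -0.0025, and not every library correlated best with its own number. A replicate block left the counts at 31 lower and 7 higher. With PluriSIn#2 replicate 1 alone, 30 fell and 7 rose, assuming that it varies like DMSO libraries.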

Other observations

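Start-site windows from RefSeq matched 34 of the 43 genes, of which 24 fell, 5 rose and 5 were not called. These genes had 42 windows. A GC box (GGGCGG) was present in 90.5% of these windows and in 35.7% of all 32851 windows, a CCAAT box in 35.7% and in 37.4% of all, and the REST letters (GGACAGC) in 16.7% and in 6.56% of all. The E2F letters TTTCCCGC, TTTCGCGC, TTTGCCGC or TTTGGCGC were found in the windows of 3 genes, Arid1a, Brd7 and Smarcd1. All 3 fell, as did 24 of the 34 matched genes. The E2F letters were in 7.14% of the 42 windows and in 2.26% of all windows. The CHR letters TTTGAA or TTCGAA were found for 2 genes, Brd9 and Smarcal1, in 7.14% of the 42 windows and in 19.2% of all windows. The REST letters were found for Actl6b, which rose, and for Arid1a, Arid1b, Chd4, Chd8, Smarca5 and Smarcc2, which fell. All motifs were searched on both strands, and these shares are descriptions without a test. The 32851 windows were not limited to genes tested here, whereas all 43 genes were tested. No share was computed for the windows of tested genes alone. No motif was tested against the direction of change.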
